A study of Mus musculus with 22 samples.

Results

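The genes described here are 10 antioxidant genes, Nqo1, Hmox1, Slc7a11, Gclc, Gclm, Gsr, Txn1, Txnrd1, Prdx1 and Srxn1, out of 56691 genes measured by RNA sequencing in CD11b+ cells from the brains of neonatal mice. They were chosen as a named list of antioxidant genes and not by a rule on their values, although earlier results of these data were known. All 10 had an Ensembl identifier that matched the GENCODE annotation, and all 10 passed the filter on low counts on both days.

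NRF2, the product of Nfe2l2, is a transcription factor that KEAP1 holds in the cytoplasm and marks for degradation until oxidants or electrophiles modify KEAP1. Freed NRF2 pairs with small MAF proteins and binds antioxidant response elements near genes for glutathione synthesis, thioredoxin recycling, quinone reduction and haem breakdown, whereas BACH1 occupies many of the same elements and holds Hmox1 back. In the brain, astrocytes are known for a strong NRF2 response and for cystine uptake through the Slc7a11 product, and microglia and macrophages are known for breaking down haem with the Hmox1 product.

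The animals were CF-1 mice, an outbred strain labelled wildtype in all groups. HIE animals were exposed before birth, when the dam received LPS at 50 µg/kg on E18, and again on P6, when the pups had 8 min of hypoxia in which oxygen fell from 21% to 0%. Controls came from saline-treated dams and stayed in normal air. By the study's methods, CD11b+ cells were collected on P7, 1 day after hypoxia, and by its results also on P14, 8 days after hypoxia. In the labelled groups these are 4 HIE and 4 control pups of P7, and 4 HIE, 4 control and 4 hypoxia animals of P14. The hypoxia group carries only the label "Hypoxia", and its exposure before birth is not given in the sources used here. All 4 HIE pups on P7 are labelled male, whereas each other group has 2 animals of each sex label. In the sample labels the HIE pups have the day P7, whereas the controls named P6H63 have P8 and P9 and those named P6H55 have P10 and P11. The study's methods place every acute pup on P7. The protocol text of the labels gives P7 for all samples, those labelled P14 included, so the days and intervals used here rest on the study's methods and results and the labelled groups. Animals share name prefixes in pairs, which are called litters here, and each litter belongs to 1 treatment, so treatment and litter cannot be told apart within a pair. Nothing in the labels says that pups of a pair are independent, so p-values measure the spread between animals of 2 litters a group. The 2 days were deposited as separate tables, so day and table cannot be told apart and no test of day was made.

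The libraries held 70191541 to 83469037 counts per animal on P7 and 29751486 to 76166750 on P14, and the 10 genes had 59 to 15128 counts per animal. The labels call the cells monocytes (CD11b+). The 15 measured microglia markers summed to between 11678 and 23029 CPM (counts-per-million, scaled to library size) in 18 of the 20 animals, and the 9 markers of blood monocytes and neutrophils were detected in every animal, at a summed 17.7 to 368 CPM. The 2 controls of litter P6H63 stood apart. Their microglia markers summed to 1187 and 1843 CPM, their 10 astrocyte markers to 4258 and 5236 CPM against 1385 to 2125 CPM in the other 6 pups of P7, and their 10 endothelial markers to 2123 and 2631 CPM against 769 to 1115 CPM. Their 8 markers of border macrophages summed to 734 and 1049 CPM, against 3747 to 6515 CPM in the other 6 pups. Monocyte and neutrophil markers summed to 17.7 and 19.0 CPM in them, against 64.3 to 176 CPM. In bulk samples, fewer cells of a type and less RNA per cell cannot be told apart. The P7 result of each of the 10 genes is therefore given against all 4 controls and against the 2 controls of litter P6H55 alone.

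The sequences below are shown because the antioxidant response element is what NRF2 binds. The core was searched on both strands as TGACNNNGC and in the variant TGAGNNNGC, which differ in 1 base. A match to either can include the AP-1 core TGANTCA, so the search does not separate these elements. Each line gives 120 bases of GRCm39, 5′ to 3′ on the strand of the gene, ending at the base before the start of the canonical transcript, except for Nqo1, where the window was moved upstream after the match had been found. Capitals mark a match, and a match on the opposite strand reads GCNNNGTCA or GCNNNCTCA.
Nqo1 (chr8:108130214-108130333, minus strand): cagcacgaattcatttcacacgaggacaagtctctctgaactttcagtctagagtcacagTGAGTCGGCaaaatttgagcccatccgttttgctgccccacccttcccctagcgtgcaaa
Hmox1 (chr8:75820121-75820240, plus strand): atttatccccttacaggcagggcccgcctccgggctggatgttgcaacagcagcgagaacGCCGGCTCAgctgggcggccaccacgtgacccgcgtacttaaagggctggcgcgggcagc
Slc7a11 (chr3:50398064-50398183, minus strand): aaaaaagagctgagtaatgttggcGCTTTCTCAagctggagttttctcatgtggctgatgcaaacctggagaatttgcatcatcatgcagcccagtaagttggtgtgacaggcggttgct
Gclm (chr3:122039006-122039125, plus strand): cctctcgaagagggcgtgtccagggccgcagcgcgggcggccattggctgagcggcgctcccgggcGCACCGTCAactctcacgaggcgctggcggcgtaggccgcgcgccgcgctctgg
Txnrd1 (chr10:82694893-82695012, plus strand): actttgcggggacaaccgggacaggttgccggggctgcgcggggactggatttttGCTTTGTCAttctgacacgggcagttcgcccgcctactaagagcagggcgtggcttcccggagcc
Prdx1 (chr4:116542621-116542740, plus strand): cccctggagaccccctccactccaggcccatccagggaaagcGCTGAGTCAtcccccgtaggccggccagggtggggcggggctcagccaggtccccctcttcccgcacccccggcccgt
Srxn1 (chr2:151947324-151947443, plus strand): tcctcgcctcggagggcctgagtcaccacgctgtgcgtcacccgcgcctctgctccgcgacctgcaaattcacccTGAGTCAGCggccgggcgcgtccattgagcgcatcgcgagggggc
Either form was found within 250 bases upstream in 7 of the 10 genes, and in 22.1% of 21630 protein-coding genes. TGACNNNGC alone was found there in 3 of the 10, Gclm, Txnrd1 and Prdx1, and in 9.67% of protein-coding genes. The 7 genes with either form within 250 bases include Txn1, with a match at bases -248 to -240. They do not include Nqo1, whose match lies at bases -339 to -331. Txn1, Gsr and Gclc are not shown because their nearest 120 bases held no match. Within 1000 bases either form was found in 9 of the 10 genes, all but Gclc, and in 56.2% of protein-coding genes. A match describes letters in a window and is not a measured binding site.

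On P7, 1 day after hypoxia, Nqo1 and Slc7a11 had the largest differences between HIE and control pups among the 10 genes, both lower in HIE, with no overlap between the groups. Nqo1 encodes a quinone reductase, and Slc7a11 the cystine carrier that supplies glutathione synthesis. DESeq2 called both lower, and the quasi-likelihood test of edgeR, the main test, called neither. The other 8 genes were called by neither tool. The main test called 15 of 22517 genes in this comparison (0.0666%), and 3 of the 10 genes and 6143 of all genes had an unadjusted p under 0.05. DESeq2 called 3024 genes (13.4%), 974 of them higher (4.33%) and 2050 lower (9.1%). The median log2 fold change of the 10 genes was -0.17, beside -0.08 over all genes tested.

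Nqo1 was at 2.22 and 2.20 CPM in the HIE pups of litter N5 and at 3.20 and 3.19 CPM in those of litter N8. In controls it was at 5.53 and 6.39 CPM in litter P6H55 and at 8.22 and 11.9 CPM in litter P6H63. Every HIE pup lay below every control, and the 2 control litters were also apart from each other. The log2 fold change was -1.57 ± 0.28 (SE, n = 4 and 4), with an adjusted p of 0.150 by edgeR's quasi-likelihood test and 7.27e-05 by DESeq2. Against the P6H55 controls alone the log2 fold change was -1.13 ± 0.21, with adjusted p of 0.153 by edgeR and 0.000218 by DESeq2. Without 1 control, P6H55-7, the main test called Nqo1 (adjusted p = 0.0337), beside 5588 of 23060 genes (24.2%), and 2 of the 3 controls in that fit were the P6H63 pups.

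Slc7a11 followed the same order of litters. It was at 35.5 to 47.5 CPM in the 4 HIE pups, at 58.5 and 78.7 CPM in the P6H55 controls and at 166 and 176 CPM in the P6H63 controls. The groups did not overlap, and the P6H63 pups stood well above all others. The log2 fold change was -1.47 ± 0.35, with adjusted p of 0.150 by edgeR and 0.00619 by DESeq2, and against the P6H55 controls alone it was -0.65 ± 0.14, with adjusted p of 0.176 and 0.00434. In the same fit without P6H55-7, which called 24.2% of genes, the main test called Slc7a11 too (adjusted p = 0.0337). The 2 genes make 2 of 10 with HIE wholly below control, beside 8.47% of all genes tested, and none of the 10 lay wholly above, beside 8.5%.

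Hmox1, which encodes the inducible haem oxygenase, depended on which control litter was used. It was at 114, 123, 127 and 121 CPM in the HIE pups, at 137 and 119 CPM in the P6H55 controls, and at 33.3 and 24.8 CPM in the P6H63 controls. The HIE pups thus overlapped with one control litter and lay far above the other. The log2 fold change was 0.63 ± 0.52 against all controls (adjusted p = 0.420, edgeR), -0.07 ± 0.08 against P6H55 (adjusted p = 0.707) and 2.10 ± 0.12 against P6H63 (adjusted p = 1.36e-05).

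The 2 subunits of glutamate-cysteine ligase, the enzyme of the first step of glutathione synthesis, were called by neither tool. Gclm, the modifier subunit, was at 37.3 to 42.8 CPM in HIE pups, at 39.9 and 42.2 CPM in P6H55 controls and at 61.5 and 76.8 CPM in P6H63 controls. Its log2 fold change was -0.45 ± 0.21 against all controls (adjusted p = 0.199, edgeR) and -0.01 ± 0.08 against P6H55. Gclc, the catalytic subunit, was at 45.6 to 51.2 CPM in HIE pups and 42.6 to 49.7 CPM in controls, and its log2 fold change was 0.06 ± 0.08 (adjusted p = 0.649). Gclm thus stood apart only in the P6H63 pups, and the values of Gclc overlapped between the groups.

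Gsr, which encodes the glutathione reductase that restores reduced glutathione, separated the 2 HIE litters instead. It was at 27.9 and 25.8 CPM in litter N5, at 42.5 and 49.2 CPM in litter N8, and at 46.6 to 54.6 CPM in the 4 controls. Both N5 pups lay below all other pups, and 1 N8 pup lay among the controls. The log2 fold change was -0.49 ± 0.21 (adjusted p = 0.180, edgeR).

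None of the 4 genes of the thioredoxin system was called by either tool. Txn1, which encodes thioredoxin, was at 46.3 to 52.0 CPM in HIE pups, 49.6 and 50.9 CPM in P6H55 controls and 63.8 and 79.5 CPM in P6H63 controls, and its log2 fold change was -0.32 ± 0.16 (adjusted p = 0.211, edgeR). Txnrd1, for the reductase that recycles thioredoxin, was at 87.6 to 92.9 CPM in HIE pups and 86.9 to 95.2 CPM in controls, with a log2 fold change of -0.02 ± 0.07 (adjusted p = 0.838). Prdx1, for an abundant peroxiredoxin that removes hydrogen peroxide, was at 178 to 205 CPM in HIE pups and 157 to 189 CPM in controls, with a log2 fold change of 0.15 ± 0.10 (adjusted p = 0.326). Srxn1, for the sulfiredoxin that repairs overoxidised peroxiredoxins, was at 13.5, 14.3 and 15.2 CPM in 3 HIE pups, at 27.6 CPM in pup N8-3 and at 11.2 to 17.6 CPM in controls. That 1 pup set the sign of its log2 fold change, which was 0.20 ± 0.26 with it (adjusted p = 0.616) and -0.10 without it.

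**Figure D1:**
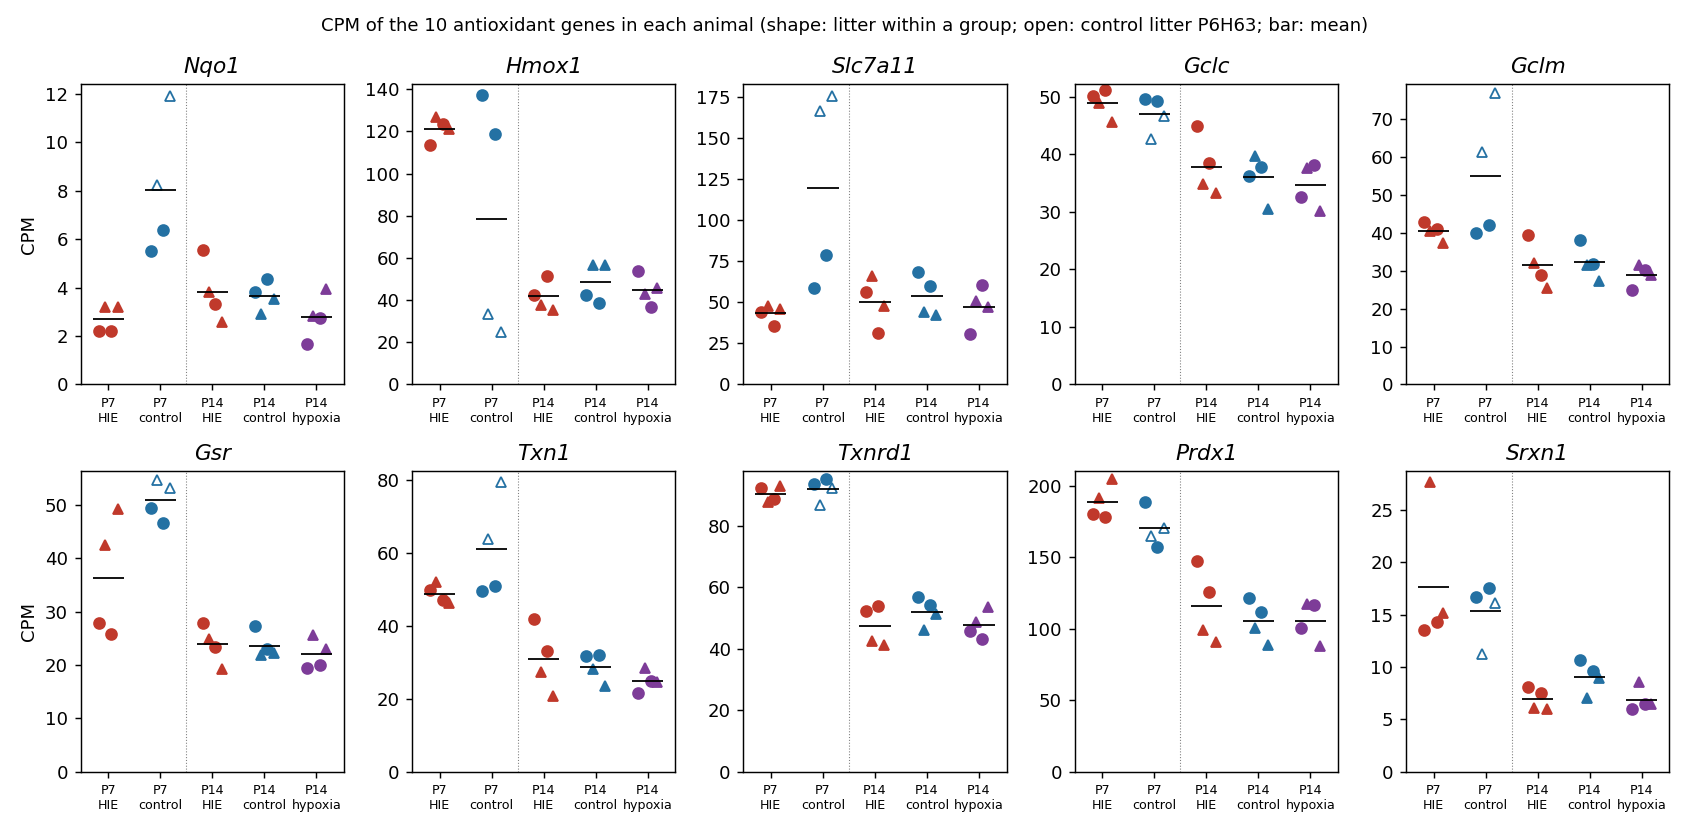
Each panel shows CPM (linear axis from 0) of 1 gene in every animal of the 5 groups, with circles and triangles for the 2 litters of a group, open symbols for control litter P6H63 and a bar at the group mean. Nqo1 and Slc7a11 show all 4 HIE pups of P7 below all 4 controls, Hmox1, Gclm and Txn1 show the P6H63 pups apart from the other 6, and the 3 groups of P14 overlap in every panel.

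When the P6H55 controls alone were compared with the HIE pups, DESeq2 called the same 2 of the 10 genes, Nqo1 and Slc7a11, beside 978 of 23274 genes (4.2%), and edgeR's quasi-likelihood test called none of the 10, beside 26 genes (0.112%). All 4 HIE pups lay below both P6H55 controls for 3 of the 10, Nqo1, Slc7a11 and, by a small margin, Txnrd1. None of the 10 had all HIE pups above both. Of 69 other antioxidant pathway genes, 10 lay below and 17 above in this way. The share over all genes tested was not computed, so these counts show nothing particular to either list. The log2 fold changes against P6H55 not given above were -0.01 for Gclc, -0.39 for Gsr, -0.03 for Txn1, -0.05 for Txnrd1, 0.13 for Prdx1 and 0.05 for Srxn1. Against the P6H63 controls alone the main test called 6 of the 10, beside 13904 of 23780 genes (58.5%), and DESeq2 also called 6, beside 14157 genes (59.5%). The 6 of the main test were Nqo1, Slc7a11, Gclm and Txn1, which were lower in HIE pups, and Hmox1 and Prdx1, which were higher. Prdx1 lay above both P6H63 pups and overlapped with the P6H55 pups. Nqo1 and Slc7a11 thus had the same direction against either litter, and their difference was smaller against P6H55.

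The levels of several of the genes followed the microglia markers across the 8 pups of P7. Pearson's r with the mean log2 CPM of the 15 markers was 0.99 for Hmox1, -0.97 for Gclm, -0.96 for Slc7a11, -0.96 for Txn1 and -0.85 for Nqo1, and these values rest mainly on the 2 P6H63 pups, which share a litter and a low marker level. The same 2 pups were also low in the markers of border macrophages and of monocytes and neutrophils, so the values cannot be called particular to microglia. With the marker mean as a term in the model, the log2 fold change of Slc7a11 was -0.53, against -1.47 without the term, that of Nqo1 -1.03, against -1.57, and that of Hmox1 -0.28, against 0.63. The main test called none of the 10 genes with this term. The microglia markers did not overlap between HIE pups (14122 to 16407 CPM summed) and P6H55 controls (11678 and 12872 CPM), and the astrocyte markers did (1385 to 1855 against 1483 and 2125 CPM). All 15 microglia markers had a positive log2 fold change against all 4 controls (median 1.13, none called by either tool), and 10 of 10 astrocyte markers a negative one (median -0.99, 5 called lower by DESeq2). The markers of the choroid plexus, the epithelium that makes cerebrospinal fluid, differed against either litter, at a summed 1180 to 2213 CPM in HIE pups, 3905 and 4473 CPM in P6H55 controls and 3513 and 9167 CPM in P6H63 controls, and DESeq2 called 10 of 10 lower. It called 8 of 10 endothelial markers lower, and their sums were 769 to 1023 CPM in HIE pups and 1096 and 1115 CPM in P6H55 controls. Sex label differed between the groups as well, and with it as a term the log2 fold changes of Nqo1 and Slc7a11 were -1.35 and -1.38 (adjusted p = 0.531 for each, edgeR). Label day differed too, at P7 in HIE pups and P10 and P11 in P6H55 controls. The parts of cell composition and label day in the differences of Nqo1 and Slc7a11 were not tested.

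**Figure D2:**
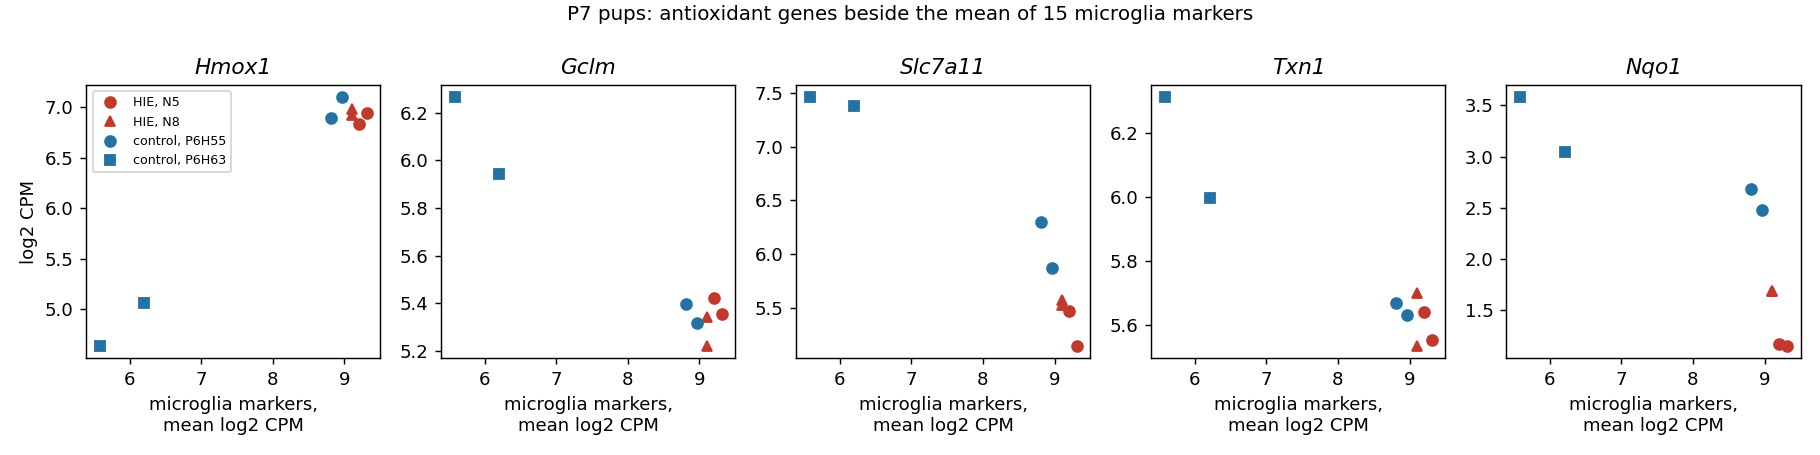
Each panel plots log2 CPM of 1 gene against the mean log2 CPM of 15 microglia markers in the 8 pups of P7, coloured by treatment and shaped by litter. The 2 P6H63 controls lie at marker means of 5.58 and 6.21 and the other 6 pups between 8.81 and 9.32, and of the 5 panels only those of Slc7a11 and Nqo1 have all HIE pups below both P6H55 controls.

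The 72 other genes of the antioxidant pathways, listed by role, had a median log2 fold change of 0.02 on P7 over the 69 that could be tested, with 35 positive and 34 negative. The other 3, Gsta1, Gsta2 and Gpx2, had counts too low for the filter. The main test called none of the 69, with 27 at an unadjusted p under 0.05, beside 6143 of 22517 genes. DESeq2 called 5 of the 69 higher and 8 lower, beside 4.33% and 9.1% of all genes tested. HIE pups lay wholly above all 4 controls for 13 of the 69 and wholly below for 9, beside 8.5% and 8.47% of all genes.

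In the glutathione group of 21 genes, DESeq2 called 2 higher and 3 lower. Gpx3, which encodes the secreted glutathione peroxidase, had the largest positive log2 fold change of the 69 genes. It was at 128, 106, 116 and 135 CPM in HIE pups, 44.3 and 56.8 CPM in P6H55 controls and 19.1 and 19.2 CPM in P6H63 controls. Every HIE pup lay above every control, and its log2 fold change was 1.80 ± 0.37 (adjusted p = 0.150 by edgeR and 0.000592 by DESeq2). Against P6H55 alone it was 1.27 ± 0.14, and there edgeR also called it (adjusted p = 0.0375). Gsta4, for a glutathione transferase that detoxifies lipid aldehydes, was at 8.03 to 10.5 CPM in HIE pups, 12.2 and 17.3 CPM in P6H55 controls and 26.2 and 38.4 CPM in P6H63 controls. Its log2 fold change was -1.41 ± 0.33 (adjusted p = 0.150 by edgeR and 0.00529 by DESeq2). DESeq2 also called the transferase Gstm2 lower (-1.38 ± 0.40). The other 2 calls in this group, named after their values were seen, were the glutaredoxin Glrx, higher, and the transferase Mgst1, lower.

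The remaining roles held fewer calls, again by DESeq2 alone. Of the 10 thioredoxin and peroxiredoxin genes, Prdx3, the mitochondrial peroxiredoxin, was higher (log2 fold change 0.47 ± 0.13) and Txnrd3, a further thioredoxin reductase, lower (-0.64 ± 0.14). Of the 6 genes of NADPH supply, G6pdx and Taldo1 of the pentose phosphate pathway were higher (0.84 ± 0.23 and 0.35 ± 0.11) and Me1, the cytosolic malic enzyme, lower (-1.14 ± 0.35). Of the 4 genes for superoxide and peroxide removal, the superoxide dismutases Sod1 and Sod3 were lower (-0.39 ± 0.11 and -1.01 ± 0.29). Of the 10 genes for quinones, aldehydes and metals, only the metallothionein Mt2 was called (-0.59 ± 0.17), and of the 7 for haem and iron none was. Against the P6H55 controls alone DESeq2 called 7 of the 69, beside 978 of 23274 genes (4.2%). Gpx3, Gsta4, Txnrd3 and G6pdx were called again in the same direction. Gpx1, Prdx2 and Hmox2 were called higher, these 3 named after their values were seen.

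The regulators of NRF2 were called by neither tool. Nfe2l2, which encodes NRF2, was at 201 to 236 CPM in HIE pups, 162 and 216 CPM in P6H55 controls and 80.7 and 91.8 CPM in P6H63 controls, so it overlapped with one control litter and not the other (log2 fold change 0.63 ± 0.30, adjusted p = 0.206, edgeR). Bach1 was at 210 to 247 CPM in HIE pups, 167 and 206 CPM in P6H55 controls and 73.3 and 81.5 CPM in P6H63 controls (0.79 ± 0.33, adjusted p = 0.172). Keap1 lay within 35.5 to 43.6 CPM in all 8 pups (-0.07 ± 0.09, adjusted p = 0.560).

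**Figure D3:**
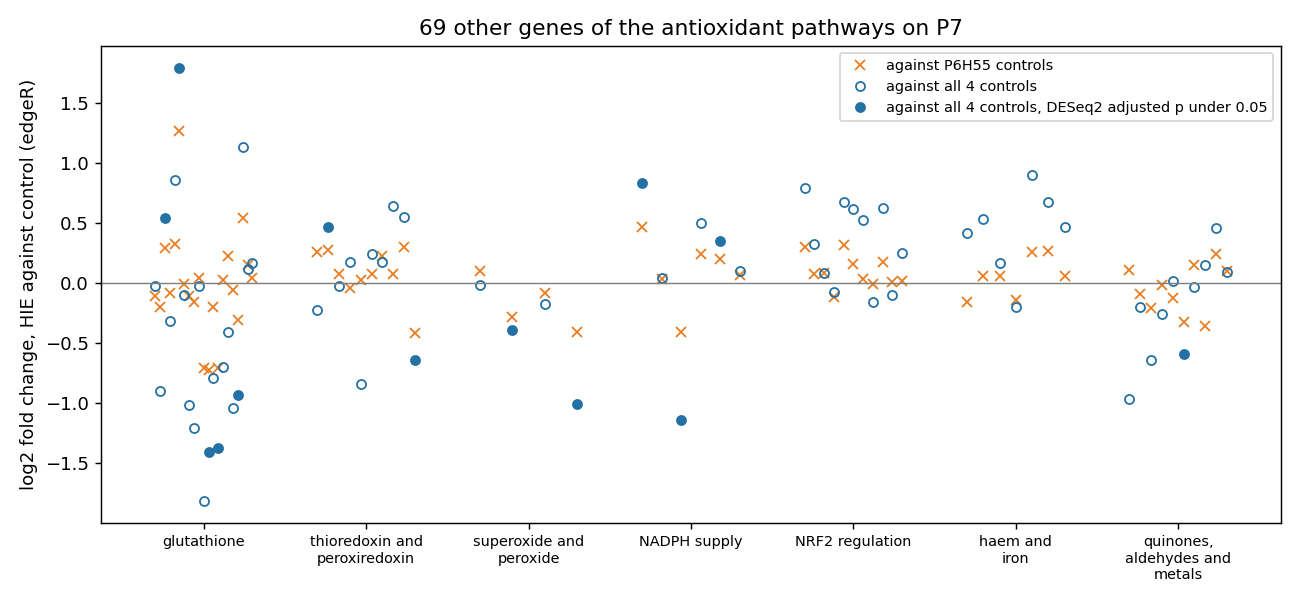
Each position is 1 of 69 tested pathway genes on P7, grouped by role, with its edgeR log2 fold change of HIE against all 4 controls (circles, filled where DESeq2 called the gene) and against the 2 P6H55 controls (crosses). Gpx3 at 1.80 and 1.27 is the highest point of both kinds, and the crosses lie nearer 0 than the circles for all 13 called genes.

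On P14, 8 days after hypoxia, none of the 10 genes was called by either tool in any comparison of the HIE, hypoxia and control groups, and the groups overlapped for all 10. The 3 comparisons share one fit of 12 animals, and the first 2 share the controls. The main test called 0 of 21678 genes (0%) in each comparison. At an unadjusted p under 0.05 it had 2017 genes for HIE against control, 2143 for hypoxia against control and 1252 for HIE against hypoxia, of which 1, 1 and 0 were among the 10. DESeq2 called 239 genes (1.1%), 127 (0.586%) and 22 (0.101%). Groups without overlap made up 5.36%, 5.01% and 2.69% of all genes tested.

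Nqo1 was at 5.56, 3.34, 3.81 and 2.58 CPM in HIE animals, 3.80, 4.37, 2.90 and 3.53 CPM in controls and 1.66, 2.73, 2.82 and 3.94 CPM in hypoxia animals. The 3 groups overlapped, and the highest and lowest of the 12 animals differed 3.34-fold. Its log2 fold change was 0.06 ± 0.28 for HIE against control (adjusted p = 0.969, edgeR) and -0.39 ± 0.29 for hypoxia against control (adjusted p = 0.706). Slc7a11 was at 56.1, 31.1, 66.0 and 47.8 CPM in HIE animals, 68.3, 59.9, 44.2 and 42.4 CPM in controls and 30.6, 60.6, 50.7 and 46.9 CPM in hypoxia animals, with a log2 fold change of -0.10 ± 0.24 for HIE against control (adjusted p = 0.942). Hmox1 was at 35.2 to 51.4 CPM, 38.6 to 56.8 CPM and 36.7 to 53.8 CPM in the same 3 groups, with -0.22 ± 0.16 for HIE against control (adjusted p = 0.737).

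Srxn1 had the smallest p-values of the 10 genes on P14 and did not pass adjustment. It was at 8.13, 7.50, 6.12 and 6.03 CPM in HIE animals, 10.6, 9.64, 7.01 and 8.92 CPM in controls and 5.95, 6.43, 8.59 and 6.50 CPM in hypoxia animals. The means of both exposed groups lay below the control mean, and 1 control lay within their range. The log2 fold change was -0.38 ± 0.17 for HIE (adjusted p = 0.530, edgeR) and -0.40 ± 0.17 for hypoxia (adjusted p = 0.481), both against the same controls. All 4 hypoxia animals have names starting with P6H, whereas the HIE and control groups each have 1 litter with P4H and 1 with P6H names. With this prefix as a term, the value for hypoxia was -0.21. The 10 neuron markers also stood lower in the exposed groups, at a summed 198 to 269 CPM in HIE, 256 to 400 CPM in hypoxia and 304 to 591 CPM in controls, with negative log2 fold changes for 10 of 10 in HIE and 9 of 10 in hypoxia. Astrocyte and oligodendrocyte markers were also negative, each for 9 of 10 in HIE and 10 of 10 in hypoxia. Red blood cell markers were negative for 7 of 7 in both. Endothelial markers were positive for 10 of 10 in both, and microglia markers for 15 of 15 in HIE and 13 of 15 in hypoxia. The part of these cell types in the values of Srxn1 was not tested.

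The remaining 6 genes differed little between the groups of P14. Their log2 fold changes lay between -0.13 and 0.13 for HIE against control, with adjusted p of 0.771 or more. For hypoxia against control they lay between -0.21 and 0.00, with adjusted p of 0.772 or more. Over all 10 genes the median was -0.01 for HIE against control, beside 0.01 for all genes tested, and -0.14 for hypoxia against control, beside -0.02, with 9 of 10 negative. For HIE against hypoxia the median was 0.12, beside 0.01, with 8 of 10 positive and the largest for Nqo1 (0.45 ± 0.28, adjusted p = 0.892). All 4 hypoxia animals have P6H names, and the level of the 10 genes differed with the name prefix. Summed, they were at 397 to 466 CPM in the P4H animals and at 323 to 395 CPM in the P6H animals of all groups. The part of the prefix in these medians was not tested.

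Of the 68 other pathway genes tested on P14, DESeq2 called 1 for HIE and 1 for hypoxia against control, and the main test none, with 3 and 4 at an unadjusted p under 0.05. Slc40a1, which encodes the iron exporter ferroportin, was at 263, 274, 257 and 274 CPM in HIE animals and 208, 204, 200 and 234 CPM in controls, with no overlap (log2 fold change 0.34 ± 0.09, adjusted p = 0.323 by edgeR and 0.0273 by DESeq2). Gstt1, a glutathione transferase, was at 1.61, 1.35, 1.69 and 1.93 CPM in hypoxia animals and 3.35, 3.25, 3.36 and 2.68 CPM in controls, also with no overlap (log2 fold change -0.94 ± 0.22, adjusted p = 0.375 by edgeR and 0.0210 by DESeq2). Nfe2l2, Keap1 and Bach1 had log2 fold changes of -0.06, 0.08 and 0.14 for HIE against control and were not called.

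**Figure D4:**
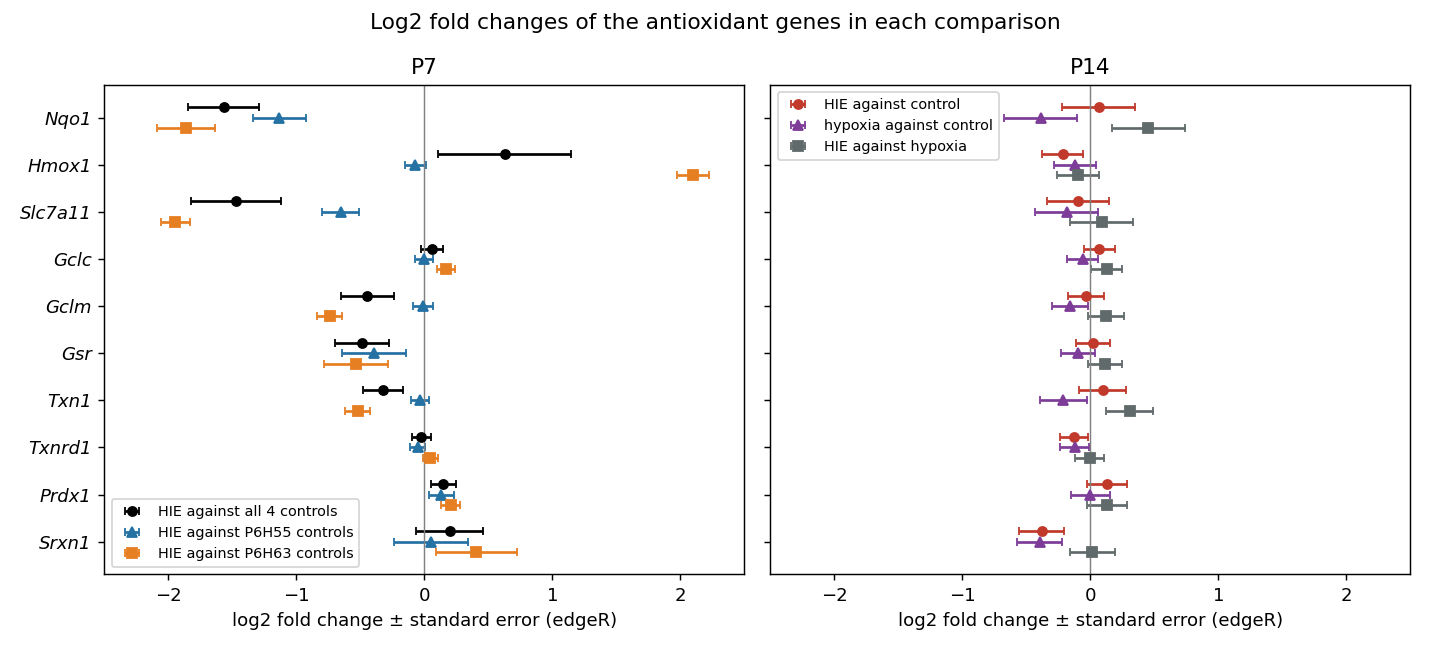
Points are edgeR log2 fold changes of the 10 genes with their standard errors, on P7 for HIE against all 4 controls and against each control litter, and on P14 for the 3 comparisons. On P7 the values of Hmox1 range from -0.07 to 2.10 with the control litter, those of Nqo1 and Slc7a11 are below 0 against either litter, and on P14 all values lie between -0.40 and 0.45.

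The HIE effect on P7 was also compared with the HIE effect on P14 as 1 contrast over 16 animals. For Nqo1 the difference of the log2 fold changes was -1.64 ± 0.38 (adjusted p = 0.115 by edgeR and 0.00624 by DESeq2), and for Slc7a11 it was -1.38 ± 0.44 (adjusted p = 0.193 and 0.0740). DESeq2 thus called the difference between days for Nqo1 and not for Slc7a11, and the main test called neither. The other 8 genes were called by neither tool, and DESeq2 called 5 of the other pathway genes, Gpx3, Maff, Gsta4, Txnrd3 and Sod3. Among 24693 genes the main test called 1 (0.00405%), with 3434 at an unadjusted p under 0.05, and DESeq2 called 674 (2.73%).

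Most of the 10 genes stood higher in the P7 table than in the P14 table, in controls and in HIE animals. In controls without litter P6H63, 9 of the 10 had all P7 values above all P14 values, beside 33.9% of 20688 genes measured on both days. Only Slc7a11 overlapped. The ratio of the means was 2.64 for Hmox1, 2.04 for Gsr, 1.89 for Srxn1 and 1.81 for Txnrd1, and it was 1.27 to 1.75 for the others. In HIE animals, 6 of the 10 lay wholly above, beside 28.5% of genes, with ratios of 2.90 for Hmox1 and 2.54 for Srxn1. The values of the other 4 overlapped, with ratios of 1.52 for Gsr, 1.29 for Gclm, 0.862 for Slc7a11 and 0.707 for Nqo1. The immediate early genes, which switch on within minutes of stimulation and of tissue dissociation, also stood higher in the P7 table outside litter P6H63. They summed to 13450 to 16101 CPM without that litter, 4721 and 5651 CPM in its 2 pups and 4586 to 9532 CPM on P14. With P6H63 included, 8 of the 10 antioxidant genes lay wholly above P14 in controls, beside 23.2% of genes. The part of the immediate early genes was not tested. The 2 tables were normalised separately, the median gene differed by 0.10 and 0.08 on the log2 scale in controls and HIE animals, and the differences were not tested.

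Levels can be compared between genes only per length, here as CPM per kilobase of the canonical transcript. In P14 controls the order was Prdx1 (39.6 ± 5.2, SD, n = 4), Txn1 (36.4 ± 5.0), Hmox1 (30.8 ± 6.0), Txnrd1 (15.7 ± 1.4), Gclc (10.5 ± 1.1), Gsr (8.82 ± 0.94), Slc7a11 (5.82 ± 1.4), Gclm (5.07 ± 0.70), Nqo1 (1.37 ± 0.23) and Srxn1 (1.26 ± 0.21). Neighbours in this order overlapped between animals except at 4 steps, from Hmox1 to Txnrd1, from Txnrd1 to Gclc, from Gsr to Slc7a11 and from Gclm to Nqo1. In P7 HIE pups Hmox1 came first (76.8 ± 3.5) and overlapped with Prdx1 (70.6 ± 4.5), and Nqo1 came last (1.01 ± 0.21) with no overlap with Srxn1 (2.45 ± 0.93). The order rests on the annotated lengths, which are 2673 bases for Prdx1 and 1577 for Hmox1. Before scaling to length, Prdx1 was at a mean of 189 CPM and Hmox1 at 121 CPM in these pups. Which transcript lengths the cells used was not tested.

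Across the 12 animals of P14 the genes tended to vary together, except for Hmox1. Pearson's r of log2 CPM was positive for 37 of the 45 pairs (median 0.47) and for 35 of the 36 pairs without Hmox1. It was highest for Gclc and Prdx1 (0.87), and lowest for Hmox1 and Slc7a11 (-0.71). Across the 8 pups of P7 only 22 of the 45 pairs were positive (median -0.05), and 18 of the 36 without Hmox1. The animals of a day share litters, 1 table and the same scaling, so the values are descriptive. The share of positive pairs among all genes was not computed, so the pattern cannot be called particular to these genes.

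Nqo1, Slc7a11 and Txn1 varied more than 2-fold over the 12 animals. The genes with the most similar pattern over these animals were Fzd1, Gdf10 and Msi2 for Nqo1 (r of 0.95, 0.94 and 0.94), Ildr2 and Itga11 for Slc7a11 (0.93 for each) and Mmut, Mthfd1 and Tceal8 for Txn1 (0.95 for each). For Srxn1, looked at after its values had been seen, they were Cplx1, Kcnip3 and Eef1a2 (0.95 for each). All of these were picked as the highest r among all genes tested over only 12 animals. High values are bound to occur under such a choice, and no link between the genes was tested.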

How the data were processed

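RNA from CD11b+ brain cells was sequenced with a stranded kit after ribosomal RNA was removed. The authors mapped reads to GRCm39 with STAR, then used RSEM for expected counts of each gene, which were deposited unscaled in 1 table for each day. In each library 85.2 to 88.8% of these values were whole. Libraries of the same animal (22 libraries, 20 animals) were summed here and the sums rounded. Of 56691 genes, 56017 matched mouse GENCODE release 39, the source of symbols and positions.

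Groups were compared with edgeR 4.0.16 (quasi-likelihood test, R 4.3.3) with TMM scaling, filterByExpr and Benjamini-Hochberg adjustment, and P14 was 1 fit of 3 groups. DESeq2 1.42.0 was an alternative. Genes were called at an adjusted p under 0.05. CPM used TMM-scaled totals within a table, and log2 CPM a prior count of 2. Errors are SE for log2 fold changes and SD for levels. Scripts were tested on simulated data. The members and lists were chosen with earlier results of these data known. Named pathway genes were those called by either tool, at most 3 per role and comparison by smallest edgeR p, with Nfe2l2, Keap1 and Bach1. Genes of similar pattern were sought for members whose P14 range exceeded 2-fold, and 1 of them is not reported here. Alternatives covered the test, scaling, filter, added terms, subsets of animals and leaving out each animal.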

Additional observations from a re-analysis of the deposited data

Results flagged for a closer look

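DESeq2 called the difference between the HIE effect on P7 and that on P14 for Nqo1 and for 5 other pathway genes, and the quasi-likelihood test of edgeR called none of the 6 (adjusted p of 0.115 to 0.173). The differences of the log2 fold changes by DESeq2 were -1.61 for Nqo1 (adjusted p = 0.00624), 1.80 for Gpx3 (0.00853), 1.38 for Maff (0.0155), -1.50 for Gsta4 (0.0495), -0.98 for Txnrd3 (0.00714) and -1.62 for Sod3 (0.0198). Maff encodes a small MAF protein, a partner of NRF2, and was at 23.1 to 29.9 CPM in HIE pups and 10.4 to 22.2 CPM in controls on P7, and at 3.64 to 6.57 CPM and 6.20 to 9.99 CPM on P14. Day, table and litter cannot be told apart in these differences.

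In 4 groups of 4 animals 1 animal lay far from the other 3, by Dixon's test. Chance alone gives about 1 in 20 groups, and 145 groups were checked. Srxn1 was at 27.6 CPM in HIE pup N8-3 of P7, Me1 at 14.4 CPM in the same pup, Sod1 at 73.5 CPM in P7 control P6H55-7 and Gstt1 at 2.68 CPM in P14 control P6H8-7M.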

How the results depend on the processing

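On P7 the main test called 15 genes and 0 of the 10 members. DESeq2 called 3024 and 2, the exact test of edgeR 1311 and 2, the P6H63 controls alone 13904 and 6 (14157 and 6 with DESeq2), and the P6H55 controls alone 26 and 0 (978 and 2 with DESeq2). Leaving out 1 pup gave 10 to 5588 genes and 0 to 2 members, and the highest count came without control P6H55-7, in which Nqo1 and Slc7a11 were called (edgeR, adjusted p = 0.0337). The negative sign of Nqo1 and Slc7a11 held under every alternative on P7.

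On P14 the main test called 0 genes in each comparison. For HIE against control DESeq2 called 239, the exact test 75, no filter 2, and a fit of the 2 groups 1 (490 with DESeq2). For hypoxia against control the counts were 127, 34, 1 and 2 (164), and 1 with the bias-adjusted fit. For HIE against hypoxia DESeq2 called 22, the exact test 15 and the fit of 2 groups 2 (15). Leaving out 1 animal gave 0 to 4, 0 to 2 and 0 to 1 genes, and no member was called under any of these alternatives. The difference of HIE effects was called for 1 gene, for 674 by DESeq2, for 0 with library size scaling or P6H55 controls only, and for 0 to 1200 when 1 animal was left out, with 1200 without P6H55-7 and 415 without P6H55-12.

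Signs changed only for values that neither edgeR nor DESeq2 called with all animals. On P7, Txnrd1 became 0.0030 with DESeq2, 0.0029 with RLE factors, 0.0080 without a filter, 0.0036 with sex, and 0.048 and, by DESeq2, 0.073 against P6H63. With library size only, which moved the median of all genes to -0.28, Gclc was -0.14 and Prdx1 -0.053. With the microglia score as a term, Hmox1 was -0.28, Gclc -0.022, Gclm 0.061 and Txn1 0.022. Against P6H55, Hmox1 was -0.071 (DESeq2 -0.058), Gclc -0.0055 and Gclm 0.0011 by DESeq2. Against P6H63, Keap1 was 0.011 (DESeq2 0.037). Srxn1 ranged from -0.10 to 0.31 and Txnrd1 from -0.051 to 0.0059 when 1 pup was left out. On P14, for HIE against control, Slc7a11 was 0.011 with the microglia score and 0.39 in P6H animals, and -0.26 to 0.077 with 1 animal left out. Nqo1 was -0.012 in P6H animals and -0.17 to 0.21 with 1 animal left out. The cause of these changes was not tested. No paired analysis was possible because replicate numbers follow accession order and pair no animals. With 2 litters a group, a difference between litters limits every comparison, and Nqo1, at 59 counts in 1 animal, has the least depth.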
